A study of Homo sapiens with 40 samples.

Results

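The ZNF genes described here are the rows of the expression table whose symbol is ZNF followed only by digits and whose mean over all 40 libraries was at least 10 TPM, without ZNF331. TPM is transcript abundance scaled for transcript length and depth, here as normalised by the authors. By this rule 63 of 15788 genes were chosen, out of 425 rows with such a symbol. The genes were chosen by their mean level, so the levels are a description. No test between treatments entered the choice, but the mean includes the treated libraries, so a rise with treatment can bring a gene in. ZNF620, ZNF462 and ZNF326 averaged 6.43, 8.97 and 9.60 TPM in vehicle, under the limit. Over all 40 libraries they averaged 13.2, 15.0 and 10.2 TPM. ZNF331 was left out with its response known. The members just inside the limit were ZNF326 at 10.2 TPM, ZNF362 at 10.2 TPM and ZNF800 at 10.2 TPM, and the symbols just outside it were ZNF707 at 9.93 TPM, ZNF830 at 9.56 TPM and ZNF266 at 9.56 TPM.

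RNA was measured in BEAS-2B cells, a line of human bronchial epithelial cells immortalised with a viral antigen, which were confluent, kept overnight without serum and treated for 2 h. The treatments, with 4 libraries each, were RNO (roflumilast N-oxide, an inhibitor of the phosphodiesterase PDE4) at 1 uM, ONO (ONO-AE1-329, which activates the EP4 receptor of prostaglandin E2) at doses of 0.1 nM, 1 nM or 1 uM, 100 nM vilanterol (which activates the β2-adrenoceptor), each of these agonist treatments together with RNO, and vehicle. All groups were of the same line, and nothing in the labels says that the 4 libraries of a group came from separate cultures, so each p-value rests on the spread of these libraries alone, which may be technical.

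ZNF symbols are given to proteins with zinc fingers, small folds held by a zinc ion. In most of them an array of C2H2 fingers reads a DNA sequence, and many also carry a KRAB domain, which recruits the co-repressor TRIM28 and silences transposable elements and nearby genes. The symbol alone does not show such a role, since some of these proteins work on RNA, ribosomes, ubiquitin or the cytoskeleton. Both receptors act through the G protein that stimulates cAMP synthesis, PDE4 breaks cAMP down, and cAMP acts on transcription through protein kinase A and the factor CREB, which binds the palindrome TGACGTCA or its core TGACG.

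The deposited values held no read counts, and library depth is therefore unknown. Column totals lay between 956888 and 1091466, and library medians between 8.47 and 9.11 TPM. In bulk RNA fewer cells of a type and less RNA per cell cannot be told apart. Of 8 epithelial markers 6 had a row, with KRT8 at 359 TPM, KRT18 at 292 TPM and KRT17 at 706 TPM, but CDH1 and EPCAM lay under 1 TPM at 0.745 and 0.265 TPM, as means over 40 libraries. The summed epithelial markers lay between 1796 and 2223 TPM with vilanterol and between 1393 and 1771 TPM with ONO at 1 uM, against 1000.4 to 1180 TPM in vehicle. Of these markers KRT17 had the widest range in TPM, from 247 to 1510 TPM over the 40 libraries. KRT8 ran from 292 to 470 TPM and KRT18 from 237 to 391 TPM. The part of these markers in the changes below was not tested. Markers of endothelial cells summed to at most 0.584 TPM in any library, those of leukocytes came from CD68 alone at 10.7 to 15.4 TPM, and those of fibroblasts, mostly COL1A1, summed to 505 to 573 TPM with vilanterol against 410 to 554 TPM in vehicle.

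The cells answered to the agonists: NR4A3, an early gene of the cAMP pathway, averaged 73.3 TPM with vilanterol and 1.35 TPM in vehicle, and ZNF331, the gene left out of the set, 110 TPM with vilanterol and 6.73 TPM in vehicle.

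Vehicle replicate 3 lay outside the range of the other 3 vehicle libraries in 37 of the 63 genes. It was below that range in 22 and above it in 15. This count does not set it apart, since vehicle replicate 1 lay below the others in 22 genes and above them in 19. ONO 0.1 nM with RNO replicate 1 lay below the others of its group in 27 and above them in 18. The median absolute log2 deviation over the 63 genes was highest in vehicle replicate 3, at 0.143. In vehicle replicate 1 it was 0.132. The deviation of vehicle replicate 3 was largest in ZNF462, at 4.61 TPM against 8.68 to 11.8 TPM in the other vehicle libraries. Genes with long transcripts were lower in vehicle replicate 3 and genes with short transcripts higher. Spearman's rho between its log2 deviation and the median GENCODE transcript length was -0.44 over the 63 genes and -0.43 over 11221 genes of the table. These are descriptions within 1 library, in which genes share that library and are not independent. Results that this library changes are given with and without it.

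**Figure D1:**
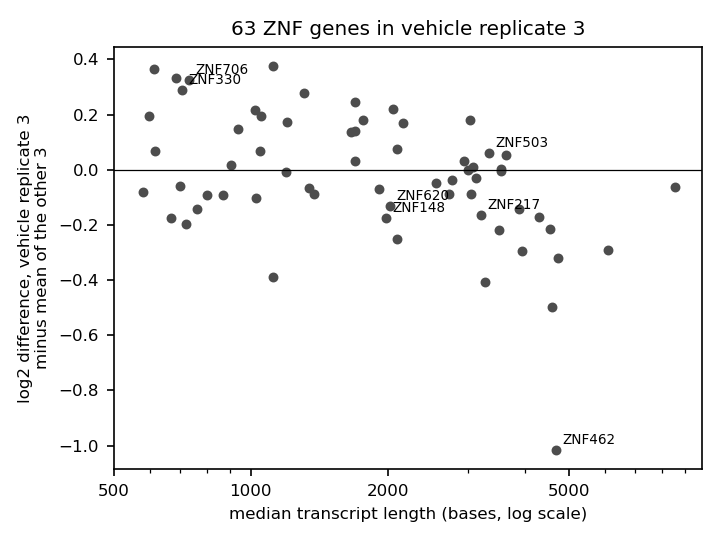
Deviation of vehicle replicate 3 from the mean of the other 3 vehicle libraries (log2 of value + 1) against median transcript length in bases on a log axis, 1 point per gene for the 63 ZNF genes. ZNF462 lies lowest at -1.02, and short-transcript genes such as ZNF706 and ZNF330 lie above 0 at 0.32 and 0.29.

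Most of the 63 genes were expressed at modest and steady levels. The highest mean was that of ZNF207, which binds microtubules and carries the checkpoint protein BUB3 to the spindle, at 92.3 TPM. ZNF664 followed at 79.5 TPM, ZNF395 at 49.7 TPM, ZNF593, a factor of ribosome assembly, at 42.3 TPM and ZNF428 at 39.1 TPM. The median of the means was 17.4 TPM, and 40 genes lay under 20 TPM. The coefficient of variation between libraries of a group ran from 2.35% in ZNF207 to 20.9% in ZNF579, with a median of 6.39%. The highest of the 10 group means over the lowest had a median of 1.14-fold over the 63 genes, against 1.10-fold over the 7537 genes of the table that averaged 10 TPM or more. It was at least 2-fold in 3 genes (4.76%, against 1.87% of those genes): 3.40-fold in ZNF620, 2.27-fold in ZNF462 and 2.09-fold in ZNF503. Without vehicle replicate 3 the ratio of ZNF462 was 1.98-fold, with RNO alone the lowest group, and 2 members (3.17%) reached 2-fold, against 1.86%. These ratios were not tested.

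A gene was called where limma's Benjamini-Hochberg adjusted p over the 12591 genes averaging 1 TPM or more was under 0.05. This fit left out the replicate number, although all 40 libraries matched best with a library of their own number in another group. Counts with the number as a block are therefore given beside it. Of the 63 genes, 25 were called against vehicle in at least 1 of the 9 treatments, 11 of them higher and 14 lower, none in both directions. The other 38 were not called in any: ZNF3, ZNF24, ZNF76, ZNF92, ZNF106, ZNF131, ZNF146, ZNF185, ZNF219, ZNF226, ZNF282, ZNF317, ZNF358, ZNF362, ZNF367, ZNF384, ZNF410, ZNF414, ZNF428, ZNF444, ZNF451, ZNF496, ZNF511, ZNF579, ZNF580, ZNF581, ZNF593, ZNF598, ZNF629, ZNF638, ZNF639, ZNF644, ZNF687, ZNF714, ZNF770, ZNF789, ZNF791 and ZNF800. With the replicate number as a block, 10 of these 38 were called in at least 1 treatment (ZNF76, ZNF185, ZNF414, ZNF444, ZNF511, ZNF598, ZNF638, ZNF639, ZNF687 and ZNF800), and 28 in none. All 9 comparisons share the 4 vehicle libraries.

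**Figure D2:**
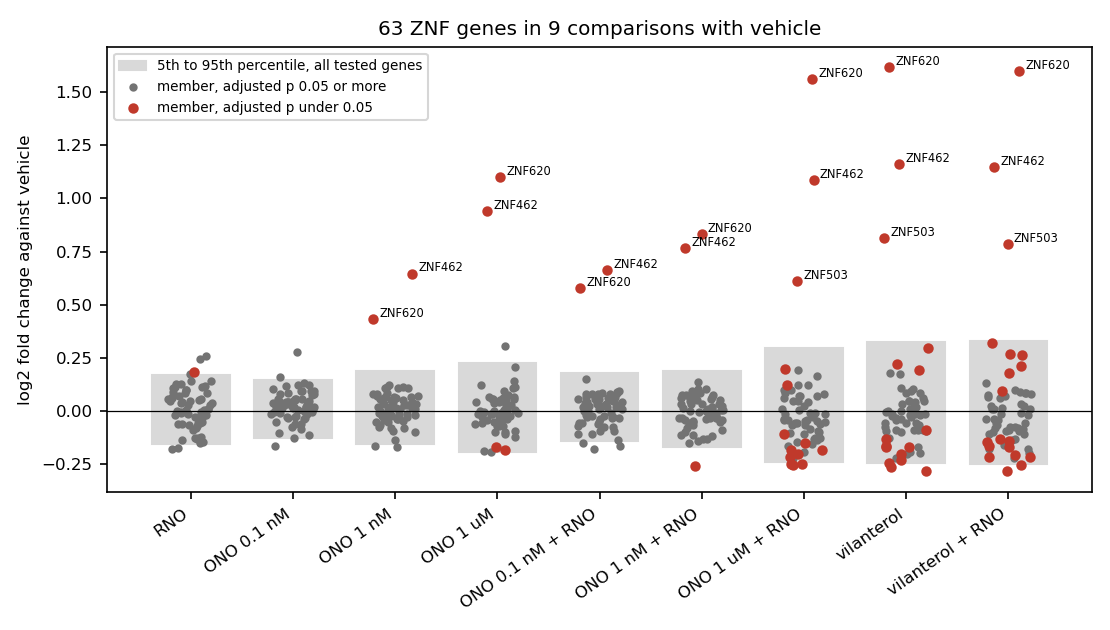
Log2 fold change against vehicle (log2 of value + 1) of the 63 ZNF genes in 9 treatments, 1 point per gene. Grey bars span the 5th to 95th percentile of all 12591 tested genes and red points are called. ZNF620 and ZNF462 lie above the grey bar in 7 treatments each as called genes, ZNF503 in 3, and the called lower genes all lie above -0.3.

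ZNF620, a C2H2 zinc finger protein, rose most. Vilanterol libraries had 22.6, 23.6, 18.6 and 22.7 TPM, against 6.78, 6.59, 5.94 and 6.43 TPM in vehicle. With ONO alone the mean was 6.43 ± 0.36 TPM in vehicle, 6.66 ± 0.61 TPM at 0.1 nM, 9.05 ± 0.84 TPM at 1 nM and 15.0 ± 2.2 TPM at 1 uM (SD, n = 4 each). The 1 nM and 1 uM libraries lay wholly above vehicle and those at 0.1 nM overlapped it. Against vehicle the rise was 3.40-fold with vilanterol (log2 fold change 1.62, SE 0.0842, limma adjusted p = 5.3e-17), 2.34-fold with ONO at 1 uM (1.10, adjusted p = 4.2e-12) and 1.41-fold at 1 nM (0.43, adjusted p = 0.0027). These calls held without each library in turn, but a fit of the compared groups alone ended the call at 1 nM (limma adjusted p = 0.063). Each fold divides the mean TPM of the groups, while each log2 fold change is a difference of log2(value + 1) and so understates low genes.

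Adding RNO raised ZNF620 at every dose of ONO. It had 9.58, 10.7, 9.98 and 10.1 TPM with ONO at 0.1 nM and RNO, against 6.27, 6.76, 6.13 and 7.48 TPM with ONO at 0.1 nM alone (log2 fold change 0.54, limma adjusted p = 0.00017). At 1 nM the means were 12.3 ± 1.4 TPM with RNO and 9.05 ± 0.84 TPM without (SD, n = 4 each; 0.40, limma adjusted p = 0.023). At 1 uM they were 21.0 ± 1.2 TPM with RNO and 15.0 ± 2.2 TPM without (SD, n = 4 each; 0.46, limma adjusted p = 0.0035). With vilanterol they were 21.5 ± 1.0 TPM with RNO and 21.9 ± 2.2 TPM without, and the difference was not called. In each of the 3 ONO pairs the libraries with and without RNO did not overlap, and ZNF620 was the 1 member called there. The share of all tested genes called was 0.723% at 0.1 nM, 0.238% at 1 nM, 0.604% at 1 uM and 0% for vilanterol.

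The call at 1 nM was lost without ONO 1 nM replicate 1, 3 or 4 or ONO 1 nM with RNO replicate 2 or 4 (log2 fold change 0.35 to 0.42, limma adjusted p = 0.052 to 0.21). Fitting the compared groups alone ended the ZNF620 calls of RNO added to ONO at 1 nM (limma adjusted p = 0.23) and 1 uM (0.12). RNO alone gave 6.87, 8.67, 7.84 and 8.27 TPM, all above the 5.94 to 6.78 TPM of vehicle (log2 fold change 0.26), and limma called it only with the replicate number as a block (adjusted p = 0.016, against 0.22 without the block). The interaction of agonist and RNO was called in no member, at any of the 3 ONO doses or with vilanterol. The shares of all tested genes called were 0.135%, 0%, 0.0635% (0.0477% higher) and 0.00794%, and at an unadjusted p under 0.05 there were 9, 8, 11 and 6 members (14.3%, 12.7%, 17.5% and 9.52%, against 6.93%, 8.8%, 7.92% and 5.77% of all genes). With the block limma called 2, 2, 5 and 0 members, against 2.57%, 1.69%, 3.76% and 0.246% of all genes, which at 1 uM included ZNF503 at 0.48 (adjusted p = 0.017) but not ZNF620. In the order of the group means of ZNF620, from vehicle up to vilanterol, the 1 pair of neighbours that did not overlap was ONO at 1 uM with RNO and ONO at 1 uM alone.

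**Figure D3:**
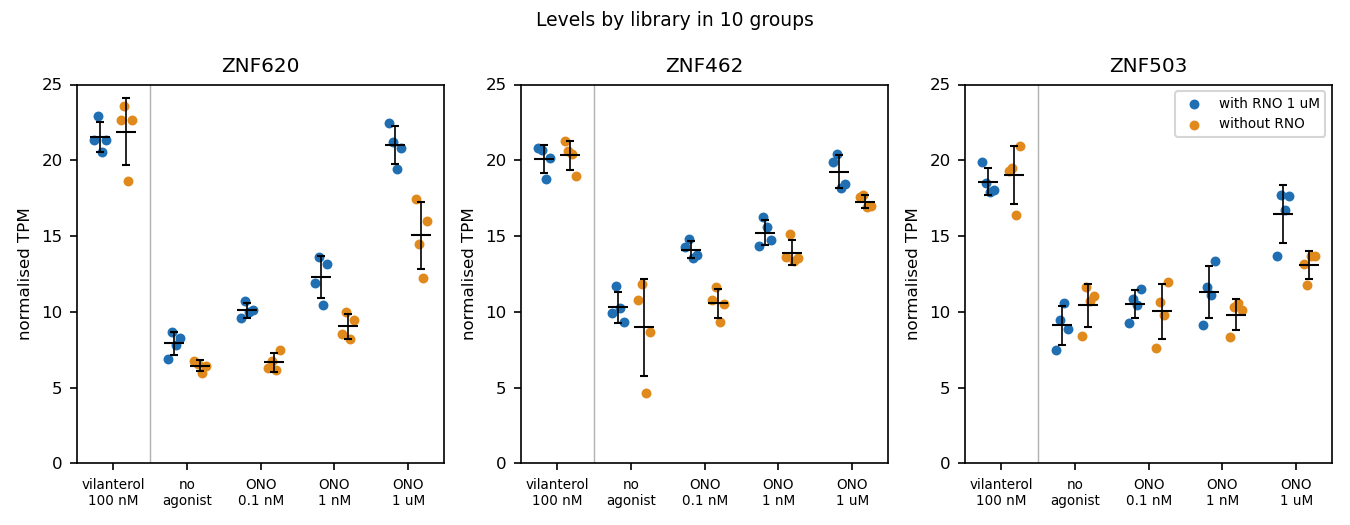
Normalised TPM in each library for ZNF620, ZNF462 and ZNF503, with vilanterol 100 nM left of the line and ONO doses from no agonist to 1 uM right of it, blue with RNO and orange without. Points are libraries and bars are mean ± SD of 4. ZNF620 reaches 21.9 TPM with vilanterol against 6.43 TPM in vehicle, and 1 vehicle library of ZNF462 lies apart at 4.61 TPM.

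ZNF462, a large C2H2 protein of chromatin in which loss of 1 copy causes a human developmental syndrome, was also higher with both agonists. Vilanterol libraries had 21.3, 20.6, 20.4 and 18.97 TPM, against 10.8, 11.8, 4.61 and 8.68 TPM in vehicle. Over the ONO series the means were 8.97 ± 3.19 TPM in vehicle, 10.6 ± 1.0 TPM at 0.1 nM, 13.9 ± 0.8 TPM at 1 nM and 17.3 ± 0.4 TPM at 1 uM (SD, n = 4 each). All libraries from 1 nM upward lay above all vehicle libraries. The log2 fold change was 1.16 with vilanterol (SE 0.126, limma adjusted p = 5.8e-09), 0.94 with ONO at 1 uM (adjusted p = 1.1e-06) and 0.65 at 1 nM (adjusted p = 0.0027). Without vehicle replicate 3 it was 0.91 (limma adjusted p = 6.3e-12), 0.69 (1.2e-08) and 0.39 (0.0019), still called in each. With RNO the means were 14.1 ± 0.6 TPM at 0.1 nM, 15.2 ± 0.8 TPM at 1 nM and 19.2 ± 1.1 TPM at 1 uM (SD, n = 4 each), and each was called against vehicle, at 0.66, 0.77 and 1.09. Without vehicle replicate 3 these were 0.41, 0.51 and 0.83, each still called. A fit of the compared groups alone ended the ZNF462 calls of ONO at 1 nM (limma adjusted p = 0.64), 1 uM (0.051), 0.1 nM with RNO (0.65) and 1 nM with RNO (0.22).

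ZNF503, a developmental repressor of transcription, rose with vilanterol and with ONO at 1 uM together with RNO. It had 19.3, 19.5, 16.4 and 20.9 TPM with vilanterol, against 8.37, 11.6, 10.7 and 11.0 TPM in vehicle (1.82-fold; log2 fold change 0.81, SE 0.111, limma adjusted p = 7.9e-07). With ONO at 1 uM and RNO it had 13.7, 17.7, 16.7 and 17.7 TPM, all above vehicle (1.58-fold; log2 fold change 0.61, limma adjusted p = 1e-04). ONO at 1 uM alone gave 13.2, 11.8, 13.7 and 13.7 TPM, which also did not overlap vehicle but missed the threshold (log2 fold change 0.31, limma adjusted p = 0.1), and was called with the block (0.011). At 0.1 and 1 nM ONO and with RNO alone the means were 10.0, 9.82 and 9.10 TPM against 10.4 TPM in vehicle, and no difference was called. The antisense gene ZNF503-AS2 lay at 0.590 TPM with vilanterol and 0.409 TPM in vehicle, as means of 4. Whether the counting used strand is not stated in the sources used here.

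The promoters of ZNF620 and ZNF503, 2 of the genes that rose most, are shown as examples. That of ZNF512, the member with the most negative log2 fold change with vilanterol, is shown beside them. These examples do not stand for the raised or lowered members. Each is the 250 bases before the gene's start in RefSeq (GRCh38.p14), 5′ to 3′ on the gene's strand, with the core TGACG, or CGTCA where it lies on the other strand, in capitals. ZNF620 is at chr3:40505789-40506038 on the plus strand, with cores whose first base lies 194 and 92 bases before the start. ZNF503, from the second of its starts in the table, is at chr10:75401765-75402014 on the minus strand, with a core 111 bases before the start. The window of its first start, at chr10:75401917-75402166, holds no core, so the window shown for ZNF503 was chosen for having one. ZNF512, at chr2:27582792-27583041 on the plus strand, holds no such core.
ZNF620: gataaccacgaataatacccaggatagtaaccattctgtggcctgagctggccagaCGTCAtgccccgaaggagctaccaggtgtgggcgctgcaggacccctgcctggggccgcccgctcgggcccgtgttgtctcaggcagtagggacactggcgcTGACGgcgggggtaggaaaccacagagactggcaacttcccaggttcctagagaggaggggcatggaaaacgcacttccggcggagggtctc
ZNF503: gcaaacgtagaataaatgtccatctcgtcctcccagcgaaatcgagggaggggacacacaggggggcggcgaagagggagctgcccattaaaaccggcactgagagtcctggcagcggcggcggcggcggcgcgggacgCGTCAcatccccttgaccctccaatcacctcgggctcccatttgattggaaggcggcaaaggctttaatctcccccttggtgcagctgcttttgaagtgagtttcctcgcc
ZNF512: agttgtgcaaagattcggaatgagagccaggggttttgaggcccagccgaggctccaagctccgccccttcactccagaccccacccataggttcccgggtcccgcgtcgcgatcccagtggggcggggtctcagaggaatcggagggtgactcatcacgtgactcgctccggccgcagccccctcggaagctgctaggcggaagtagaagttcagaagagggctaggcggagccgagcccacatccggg
A RefSeq promoter was matched to 57 of the 63 genes. The core TGACG, searched on both strands, was in 22 of the 57 (38.6%), against 24.9% of 27305 genes and 39.3% of the 5902 matched genes that averaged 10 TPM or more. Of the matched raised members, ZNF148, ZNF326, ZNF330, ZNF503 and ZNF620 held it, and ZNF664, ZNF672 and ZNF675 did not. Of the matched lowered members, ZNF207, ZNF622 and ZNF655 held it. ZNF22, ZNF212, ZNF217, ZNF281, ZNF512, ZNF574, ZNF740, ZNF768 and ZNF787, also lowered, did not. Whether the core went with the direction of change was not tested. The full palindrome TGACGTCA, which contains 2 overlapping copies of the core, was in ZNF330, ZNF511 and ZNF593 (5.26%, against 2.03% of all and 4.02% of those expressed genes). The GC box GGGCGG was in 75.4%, against 46.2% and 77.9%. The AP-1 motif TGANTCA was in 8.77%, against 8.06% and 5.39%. These shares are descriptions, and lie nearer those of genes of like level than those of all genes for the core, the palindrome and the GC box.

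ZNF620 has ZNF genes on either side. ZNF621, with a mean under 10 TPM, had 11.2 ± 0.4 TPM with vilanterol and 7.88 ± 0.53 TPM in vehicle (SD, n = 4 each; log2 fold change 0.46, limma adjusted p = 9e-10). ZNF619 had 2.69 ± 0.56 TPM with vilanterol and 2.51 ± 0.54 TPM in vehicle (SD, n = 4 each; 0.08, limma adjusted p = 0.62). How reads were split between these neighbouring genes was not examined and is uncertain.

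Vilanterol changed the most members of the single treatments. It raised 6 of the 63 genes and lowered 10 (25.4%), against 17.7% of all tested genes, of which 9.69% were higher and 7.97% lower. Among the 7537 genes that averaged 10 TPM or more, 18.9% were called. The median log2 fold change was -0.03 over the 63 genes and -0.01 over all genes. In 13 members the 4 vilanterol and 4 vehicle libraries did not overlap, against 14.9% of all genes. The split of 6 higher and 10 lower became 7 and 5 when libraries were rescaled to equal totals. The block called 27 members, 12 higher and 15 lower, against 31.2% of all genes.

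Beside ZNF620, ZNF462 and ZNF503, the members raised by vilanterol moved little. ZNF672 had 16.9, 15.9, 17.3 and 17.7 TPM with vilanterol, against 12.1, 14.9, 13.7 and 13.9 TPM in vehicle (log2 fold change 0.30, limma adjusted p = 0.0051). ZNF326, of the complex that couples RNA polymerase to splicing, had 11.5, 11.4, 12.1 and 10.3 TPM, against 10.0, 10.3, 9.11 and 9.02 TPM in vehicle (0.22, limma adjusted p = 0.0076). Neither pair of groups overlapped, and both calls held without each library in turn. ZNF330, a nucleolar protein, had 21.3 ± 0.7 TPM with vilanterol and 18.6 ± 2.1 TPM in vehicle (SD, n = 4 each; 0.19, limma adjusted p = 0.02). Its groups overlapped through vehicle replicate 3 at 21.6 TPM, without which the change was 0.27 (limma adjusted p = 0.00069). The ZNF330 call was lost without vehicle replicate 1, 2 or 4 or vilanterol replicate 2 (limma adjusted p = 0.053 to 0.068).

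Each member lowered by vilanterol fell by less than 0.3 on the log2 scale. ZNF512 had 12.5, 14.1, 14.3 and 14.5 TPM with vilanterol, against 16.6, 17.0, 17.0 and 17.8 TPM in vehicle (0.811-fold; log2 fold change -0.29, SE 0.05, limma adjusted p = 5e-05). ZNF7 had 10.6, 9.72, 10.9 and 10.5 TPM, against 13.8, 11.9, 12.0 and 13.2 TPM in vehicle (-0.26, limma adjusted p = 0.00019). ZNF281, a GC-rich promoter factor related to ZNF148, had 11.0, 11.5, 11.2 and 10.3 TPM, against 12.7, 12.4, 12.5 and 12.4 TPM in vehicle (-0.17, limma adjusted p = 0.0065). In each of these 3 genes every vilanterol library lay under every vehicle library, and the call held without each library in turn.

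The other 7 lowered members lost their call without some library. ZNF574 had 11.6, 9.93, 11.0 and 11.1 TPM with vilanterol, against 12.2, 11.8, 12.1 and 13.3 TPM in vehicle (log2 fold change -0.17, limma adjusted p = 0.026; 0.11 without vehicle replicate 4 and 0.14 without vilanterol replicate 2). ZNF212 (-0.17), ZNF740 (-0.13) and ZNF207, the spindle protein (-0.09), also had groups that did not overlap. ZNF212 lost its call without vehicle replicate 3 or 4 or vilanterol replicate 3 (limma adjusted p = 0.057 to 0.075), ZNF740 without vehicle replicate 4 or vilanterol replicate 1 or 2 (0.05 to 0.082) and ZNF207 without vehicle replicate 1 (0.074). The groups of ZNF217, ZNF706 and ZNF22 overlapped. ZNF217, which works with CtBP and histone-demethylating co-repressors, had 15.1 ± 1.7 TPM with vilanterol and 17.9 ± 1.1 TPM in vehicle (SD, n = 4 each; -0.23, limma adjusted p = 0.024), lost without vehicle replicate 1 or 4 or vilanterol replicate 1 or 4 (0.053 to 0.12). ZNF706 had 17.8 ± 1.0 TPM and 21.4 ± 2.9 TPM in vehicle (SD, n = 4 each; -0.25, limma adjusted p = 0.0071), and without vehicle replicate 3, at 25.3 TPM, -0.17 (0.071). ZNF22 (-0.20, limma adjusted p = 0.03) was lost without vehicle replicate 1 or 4 or vilanterol replicate 1 or 3 (0.067 to 0.13).

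**Figure D4:**
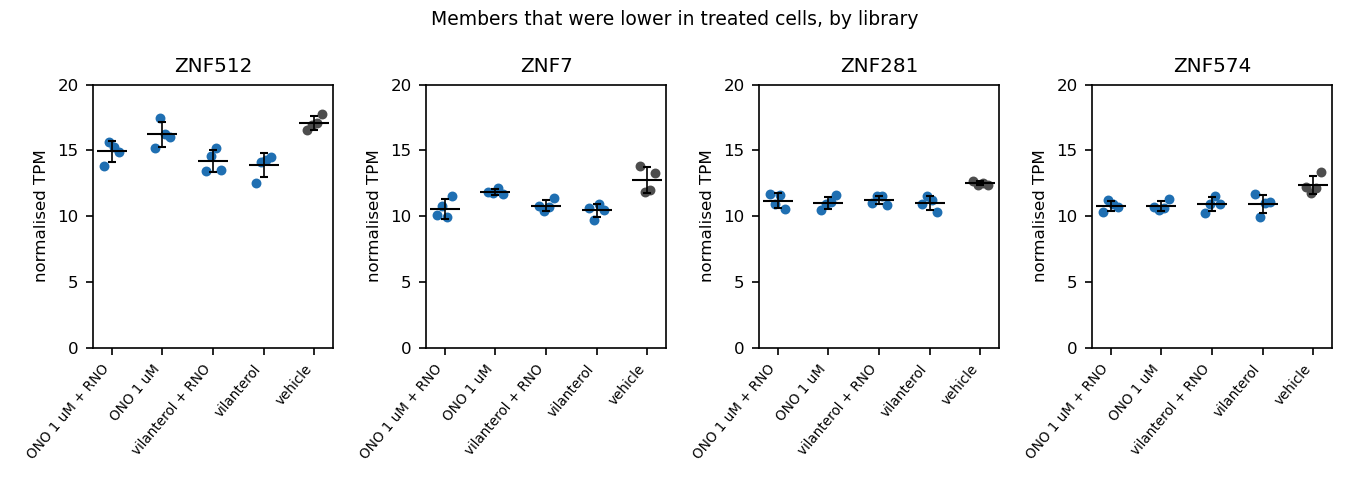
Normalised TPM by library for ZNF512, ZNF7, ZNF281 and ZNF574 in ONO at 1 uM and vilanterol, each with and without RNO (blue), and vehicle (dark grey). Points are libraries and bars are mean ± SD of 4. In vilanterol each gene lies under vehicle, by 0.17 to 0.29 on the log2 scale.

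ONO at 1 uM alone raised 2 members, ZNF620 and ZNF462, and lowered 2, ZNF281 and ZNF574 (6.35%), against 7.21% of all tested genes, of which 4.19% were higher and 3.02% lower. ZNF281 had 10.5, 10.9, 11.1 and 11.6 TPM with ONO at 1 uM, against 12.4 to 12.7 TPM in vehicle (log2 fold change -0.17, limma adjusted p = 0.014). ZNF574 had 10.7, 10.4, 10.6 and 11.3 TPM, against 11.8 to 13.3 TPM in vehicle (-0.18, limma adjusted p = 0.028). Neither pair of groups overlapped. Without ONO 1 uM replicate 1 both calls were lost (limma adjusted p = 0.065 for ZNF281 and 0.059 for ZNF574) and 2 members were called in all. ZNF574 was also lost without vehicle replicate 4 (0.12) or ONO 1 uM replicate 2 (0.089) or 3 (0.07). The block called 11 members, 7 higher and 4 lower, against 16.6% of all genes.

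ONO at 1 uM and vilanterol, compared with each other, differed in 4 members (6.35%), against 2.14% of all tested genes. ZNF620 was lower with ONO, at 15.0 ± 2.2 TPM and 21.9 ± 2.2 TPM with vilanterol (SD, n = 4 each; log2 fold change -0.52, limma adjusted p = 0.00018). ZNF503 was also lower, at 13.1 ± 0.9 TPM and 19.03 ± 1.89 TPM with vilanterol (SD, n = 4 each; -0.51, limma adjusted p = 0.0067). ZNF512, at 16.2 ± 0.9 TPM and 13.9 ± 0.9 TPM with vilanterol, was higher with ONO (SD, n = 4 each; 0.21, limma adjusted p = 0.012), as was ZNF740 (0.15, limma adjusted p = 0.03). The libraries of ZNF740 overlapped between the agonists, and those of the other 3 did not. Without ONO 1 uM replicate 2 or vilanterol replicate 1, ZNF512 (limma adjusted p = 0.098 and 0.091) and ZNF740 (0.12 and 0.15) were lost and 2 members were called. ZNF740 was also lost without ONO 1 uM replicate 3 (0.1) or 4 (0.12) or vilanterol replicate 2 (0.12). Rescaling to equal totals left the 2 lower calls and no higher one. The block called 8 members, 5 higher and 3 lower, against 6.8% of all genes.

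ONO at 1 uM with RNO, which against ONO alone changed ZNF620 as its 1 member, raised 5 members, ZNF620, ZNF462, ZNF503, ZNF326 and ZNF664, and lowered 9 (22.2%), against 15.8% of all tested genes, of which 8.92% were higher and 6.86% lower. In 11 members its libraries did not overlap vehicle, against 14.2% of all genes. The lowered members were ZNF787 (log2 fold change -0.26), ZNF706 (-0.25), ZNF7 (-0.25), ZNF217 (-0.22), ZNF212 (-0.20), ZNF512 (-0.19), ZNF574 (-0.18), ZNF281 (-0.15) and ZNF655, a protein that binds the signalling factor Vav (-0.11). ZNF7 had 10.1, 10.8, 9.89 and 11.5 TPM, all under the 11.9 to 13.8 TPM of vehicle (limma adjusted p = 0.00046). ZNF512 had 13.8, 15.6, 15.3 and 14.9 TPM, all under the 16.6 to 17.8 TPM of vehicle (limma adjusted p = 0.0081). ZNF326 had 11.2 ± 0.8 TPM and 9.60 ± 0.62 TPM in vehicle (SD, n = 4 each; 0.20, limma adjusted p = 0.019). ZNF664 had 81.2 ± 2.8 TPM and 74.8 ± 5.4 TPM in vehicle (SD, n = 4 each; 0.12, limma adjusted p = 0.025).

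Of these 14 calls, 7 held without each of the 8 libraries: ZNF620, ZNF462, ZNF503, ZNF787, ZNF7, ZNF212 and ZNF512. Without vehicle replicate 3 the calls of ZNF706 (limma adjusted p = 0.075), ZNF664 (0.17), ZNF326 (0.07) and ZNF655 (0.074) were lost. Without ONO 1 uM with RNO replicate 1 the count was 9, and ZNF217 (limma adjusted p = 0.14), ZNF326 (0.051), ZNF574 (0.053), ZNF655 (0.068) and ZNF664 (0.055) were lost. ZNF281 was lost without replicate 2 or 4 of that group (0.062 and 0.082). The other losses were of ZNF217, ZNF326, ZNF574, ZNF655 and ZNF664 without vehicle replicate 1, 2 or 4 or replicate 2, 3 or 4 of the treated group. The split became 6 higher and 4 lower with equal totals. The block called 24 members, 9 higher and 15 lower, against 29.7% of all genes.

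Vilanterol with RNO raised 9 members and lowered 10 (30.2%), against 18.4% of all tested genes, of which 10% were higher and 8.44% lower. In 14 members its libraries did not overlap vehicle, against 14.8% of all genes. The raised ones were ZNF620 (log2 fold change 1.60), ZNF462 (1.15), ZNF503 (0.78), ZNF326 (0.32), ZNF672 (0.27), ZNF394, a SCAN and KRAB protein that represses AP-1 activity (0.27), ZNF675 (0.21), ZNF330 (0.18) and ZNF395 (0.09). ZNF326 had 11.5, 12.4, 13.7 and 11.5 TPM, against 9.02 to 10.3 TPM in vehicle (limma adjusted p = 1e-04). ZNF394 had 11.9, 12.0, 12.7 and 12.3 TPM, against 8.60 to 11.0 TPM in vehicle (limma adjusted p = 0.0028). Neither pair of groups overlapped. The lowered members were ZNF706 (-0.29), ZNF512 (-0.26), ZNF7 (-0.22), ZNF22 (-0.22), ZNF787 (-0.21), ZNF768 (-0.17), ZNF574 (-0.17), ZNF622, a factor of the large ribosomal subunit (-0.15), ZNF281 (-0.14) and ZNF655 (-0.13). With vilanterol alone ZNF394, ZNF395, ZNF675, ZNF787, ZNF768, ZNF622 and ZNF655 were not called, but vilanterol with RNO differed from vilanterol alone in no member, nor at an unadjusted p under 0.05.

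Of these 19 calls, 9 held without each of the 8 libraries: ZNF620, ZNF462, ZNF503, ZNF326, ZNF394, ZNF512, ZNF7, ZNF706 and ZNF655. Without vehicle replicate 3 ZNF395 (limma adjusted p = 0.11), ZNF622 (0.15), ZNF675 (0.18), ZNF768 (0.14) and ZNF787 (0.082) were lost. Without vehicle replicate 1 ZNF672 (0.055), ZNF22 (0.092), ZNF330 (0.099), ZNF395 (0.061), ZNF622 (0.078) and ZNF675 (0.071) were lost. Vehicle replicate 2 decided ZNF330, ZNF675 and ZNF787 (0.096, 0.06 and 0.073), and vehicle replicate 4 decided ZNF330 and ZNF574 (0.08 and 0.1). ZNF281 was lost without replicate 1 or 4 of the treated group (0.055 and 0.07). Leaving out single libraries of the treated group also ended the calls of ZNF22, ZNF330, ZNF395, ZNF574, ZNF622, ZNF675, ZNF768 and ZNF787. With equal totals 9 were higher and 3 lower. The block called 29 members, 11 higher and 18 lower, against 32% of all genes.

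**Figure D5:**
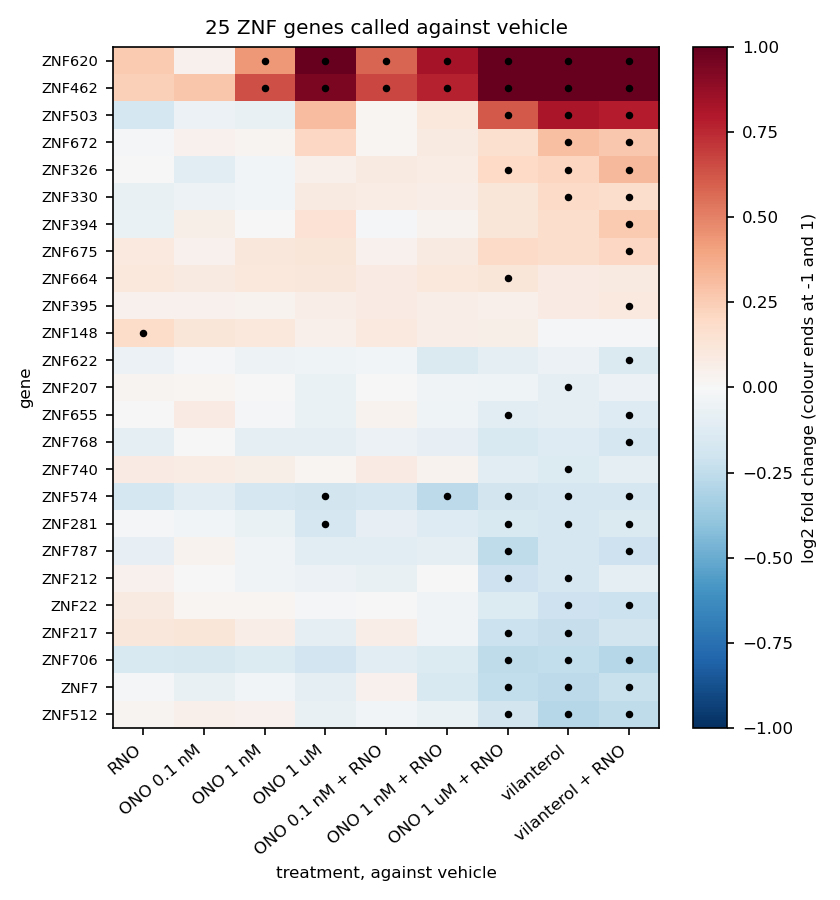
Log2 fold change against vehicle of the 25 ZNF genes called in at least 1 of 9 treatments, ordered by their change with vilanterol. Dots mark calls and colour ends at -1 and 1. Red rows at the top are ZNF620, ZNF462 and ZNF503, and the blue rows at the bottom, down to ZNF512, hold dots mostly in the 3 columns on the right.

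The weaker treatments moved few members. ONO at 1 nM raised ZNF620 and ZNF462 (3.17%, against 1.01% of all tested genes), and 5 members were called with the block, against 8.47%. ONO at 0.1 nM with RNO raised the same 2 genes (against 1.12%), and 4 were called with the block, against 5.12%. ONO at 1 nM with RNO raised both and lowered ZNF574 (4.76%, against 3.45% of all genes, 1.27% lower). ZNF574 had 9.51, 10.4, 10.2 and 10.4 TPM, against 11.8 to 13.3 TPM in vehicle (log2 fold change -0.26, limma adjusted p = 0.0017), with no overlap between the groups and the call held without each library. That count was 5 without vehicle replicate 2. ONO at 0.1 nM was called in no member by limma, with or without the block, and 0% of all tested genes were called without it. At an unadjusted p under 0.05 there were 7 members (11.1%), against 5.85% of all genes.

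RNO alone raised ZNF148 and no other member, against 0.238% of all tested genes and 0.103% called higher. ZNF148, a C2H2 factor that binds GC-rich promoter elements, had 13.0, 13.8, 13.7 and 13.8 TPM with RNO, against 12.2, 12.4, 10.7 and 12.0 TPM in vehicle (1.14-fold; log2 fold change 0.18, SE 0.0413, limma adjusted p = 0.045). The groups did not overlap. Without vehicle replicate 3, at 10.7 TPM, the change was 0.14 (limma adjusted p = 0.23). The call was also lost without vehicle replicate 4 (0.066) or RNO replicate 2, 3 or 4 (0.14, 0.12 and 0.19), leaving no member called. Across the ONO series ZNF148 had 11.8 ± 0.8 TPM in vehicle, 13.0 ± 0.6 TPM at 0.1 nM, 12.8 ± 0.2 TPM at 1 nM and 12.3 ± 0.1 TPM at 1 uM (SD, n = 4 each), and 11.7 ± 0.6 TPM with vilanterol. None was called against vehicle, and of 40 libraries the lowest had 10.7 and the highest 13.8 TPM. Its interaction with RNO was -0.21, -0.22 and -0.18 at the 3 ONO doses, called by limma only with the block (adjusted p = 0.014, 0.017 and 0.038). For RNO against vehicle the block called 5 members, ZNF148, ZNF620, ZNF664 and ZNF687 higher and ZNF574 lower, against 5.11% of all genes. RNO added to ONO at 1 uM gave 7 members with the block, ZNF620 and ZNF503 higher and ZNF212, ZNF512, ZNF687, ZNF740 and ZNF76 lower, against 3.69%. Added to 0.1 nM it gave ZNF620 and ZNF326, against 2.58%.

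Of 12 listed promoter and developmental factors 7 were members (ZNF148, ZNF281, ZNF217, ZNF219, ZNF395, ZNF503 and ZNF367), and vilanterol raised 1 and lowered 2 of them, with a median log2 fold change of -0.02, against 17.7% called and a median of -0.01 over all genes. Of 9 listed chromatin and SUMO proteins 4 were members (ZNF687, ZNF644, ZNF462 and ZNF451), of which it raised ZNF462 and called no other (median -0.02). Of 8 listed proteins of RNA, ribosomes and translation 7 were members (ZNF598, ZNF622, ZNF593, ZNF326, ZNF638, ZNF330 and ZNF106), of which it raised ZNF326 and ZNF330 (median -0.04).

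Members that were not called without the block moved little. Against vehicle their log2 fold changes lay between -0.22, in ZNF414 with ONO at 1 uM and RNO, and 0.17, in ZNF687 with RNO. ZNF593, the ribosome factor, ran from 38.0 to 52.5 TPM over the 40 libraries, and its highest group mean, in vehicle, was 1.10-fold the lowest, with RNO. ZNF598, a ubiquitin ligase that marks collided ribosomes, ran from 14.3 to 18.2 TPM. ZNF451, a SUMO ligase, ran from 13.4 to 16.9 TPM, and its highest group mean was 1.07-fold the lowest. ZNF185, a LIM protein of the actin cytoskeleton without C2H2 fingers, ran from 28.0 to 33.8 TPM. ZNF644, a partner of the histone methyltransferases G9a and GLP, ran from 17.7 to 23.2 TPM. ZNF579 was the least steady, at 9.86 to 21.0 TPM, so that a change of the size seen in other members was less detectable in it.

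Of 16 genes of the TRIM28 co-repressor and HUSH silencing machinery, none was called with vilanterol by limma, against 17.7% of all tested genes. In 1 the unadjusted p was under 0.05, against 29.9% of all genes. The 1 call over 9 treatments was of the chromatin remodeller SMARCAD1, with 14.6 TPM in ONO at 1 uM with RNO and 13.4 TPM in vehicle (log2 fold change 0.12, limma adjusted p = 0.047). In that treatment 15.8% of all tested genes were called. The median change of the 16 genes with vilanterol was -0.004.

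Of 287 less expressed ZNF genes, with means of 1 to 10 TPM, vilanterol raised 13 and lowered 27 (13.9%). Of all tested genes 17.7% were called, 9.69% higher and 7.97% lower. The log2 fold changes of these 287 genes lay between -0.46 and 0.53, so none reached those of ZNF620, ZNF462 or ZNF503. This was partly set by the limit of 10 TPM on a mean that includes the treated libraries. A strong rise takes a gene over that limit and out of this set, as with ZNF620 and ZNF462, which lay under it in vehicle. The log2(value + 1) scale understates low genes, and the difference between the sets was not tested. Of 13 ZBTB, ZSCAN, ZKSCAN and ZFP genes that averaged 10 TPM or more, 6 were called with vilanterol, 4 higher and 2 lower. This is beside the same 17.7% of all tested genes, and the difference was not tested.

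Chromosome 19, where KRAB zinc finger genes lie in clusters, held 15 of the 63 (23.8%), against 209 of 423 ZNF symbols with a position (49.4%) and 7.69% of 12831 genes of the table, a description that was not tested. Neighbouring members were ZNF581 and ZNF580, and ZNF787 and ZNF444, on chromosome 19, and ZNF789 and ZNF394, and ZNF282 and ZNF212, on chromosome 7. Without the block, both genes of a pair were called against vehicle in no treatment. With it, ZNF787 and ZNF444 were both called with vilanterol, vilanterol with RNO and ONO at 1 uM with RNO.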

How the data were processed

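RNA from 40 BEAS-2B libraries (directional, poly(A) selected, sequenced with 2 kits per the labels' protocols, which do not say which library had which kit) was quantified by the authors. Per the submitters' processing notes bcl2fastq 2.18.0.12, kallisto, sleuth, GRCh37 and hg19 were used; other versions were not found there. The deposited table holds normalised TPM, a signal adjusted between samples, since column totals differ; the test was planned for TPM and was kept. No counts were used, so depth is unknown and no counting interval is given.

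Groups come from the sample descriptions. Values were transformed to log2(value + 1), genes with a mean of at least 1 were tested, and limma 3.58.1 (R 4.3.3) fitted 1 mean per group over all 40 libraries with an intensity trend, leaving 30 residual degrees of freedom, for 18 comparisons. The fit was first tested on simulated data, where it called nearly all of the larger changes and a minority of those near 0.2 on the log2 scale. The simulated libraries were independent and few genes were changed in them. The same-numbered libraries here deviated together and more genes were called, so the simulated recovery does not give the detection limit of these data. Promoters are from RefSeq, transcript lengths from GENCODE 29, both of a later build than the authors'.

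Members and gene lists were chosen with earlier results of these data known. Named genes are called members without overlap between groups (up to 10 each way per comparison), ZNF148, the 5 highest, the 3 each side of the limit, and called genes of the role and co-repressor lists; other called members, and those called only with the block, were named after their values were seen.

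Same-numbered libraries deviated together: in 13 of 14 comparisons of groups every pair correlated at over 0.1, from 0.11 to 0.54, the exception being ONO at 1 nM with RNO against vehicle (lowest 0.02). All 40 libraries had their best match in another group under their own number. Alternatives were pseudocount 0.1, no filter, equal totals, median centring, the replicate block, library weights, fitting only the compared groups, leaving out each library and, added after seeing the data, the block without vehicle replicate 3.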

Additional observations from a re-analysis of the deposited data

Results flagged for a closer look

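In the 25 members called against vehicle, each of the 10 groups was searched for a library far from the other 3, by its gap to the nearest one divided by the range, using Dixon's critical value. Of 250 groups 6 had one, and chance gives about 1 in 20. ZNF217 had 16.3 TPM in vehicle replicate 3, against 18.3 to 18.4 in the others. ZNF330 had 21.6 TPM in the same library, against 17.3 to 17.9. ZNF281 had 10.4 TPM in ONO 1 nM with RNO replicate 4, against 11.5 to 11.8. ZNF395 had 53.8 TPM in ONO 1 uM replicate 4, against 48.5 to 49.2. ZNF462 had 15.1 TPM in ONO 1 nM replicate 2, against 13.3 to 13.6. ZNF740 had 18.2 TPM in ONO 1 uM replicate 1, against 20.4 to 20.5.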

How the results depend on the processing

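For the named members, no alternative turned the direction of a call. Small changes of ZNF148 that were not called did change sign. With vilanterol against vehicle its log2 fold change was -0.019 and reached 0.002 among the alternatives. With vilanterol and RNO against vehicle it was -0.014 and reached 0.022. Over all named results 1191 values kept their side of the threshold, 184 lost it and 5 gained it. With the replicate block, counts of members called were 5 for RNO, 5 for ONO 1 nM, 11 for ONO 1 uM, 27 for vilanterol, 4 for ONO 0.1 nM + RNO, 7 (3 higher, 4 lower; 10% of all genes) for ONO 1 nM + RNO, 24 for ONO 1 uM + RNO and 29 for vilanterol + RNO against vehicle, 2 and 7 for RNO added to ONO 0.1 nM and 1 uM, 8 for ONO 1 uM against vilanterol, and 2, 2 and 5 for the interactions with ONO at 0.1 nM, 1 nM and 1 uM. Every member called without the block was also called with it. With the block and without vehicle replicate 3 they were 3 for RNO, 12 for ONO 1 uM, 27 for vilanterol, 6 for ONO 1 nM + RNO, 26 for ONO 1 uM + RNO, 30 for vilanterol + RNO, and 4, 2 and 6 for the interactions. Shares of all tested genes called were computed only for the main fit and the block. Counts under any other setting, here, above or below, describe the members alone and do not set them apart from the table.

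Fitting only the compared groups left 0 for RNO, 0 for ONO 1 nM, 1 for ONO 1 uM, 6 for vilanterol, 1 for ONO 0.1 nM + RNO, 1 for ONO 1 nM + RNO, 3 for ONO 1 uM + RNO and 6 for vilanterol + RNO, and 2, 0 and 0 for RNO added to ONO at 0.1 nM, 1 nM and 1 uM; fewer libraries then estimate the spread. Equal totals gave 0 for RNO, 12 for vilanterol + RNO and 2 for ONO 1 uM against vilanterol, no filter 0 for RNO, and library weights 0 for RNO and 3 for RNO added to ONO 0.1 nM; the cause was not tested. Neither scaling moved the median of all genes by 0.1.

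Leaving out 1 library gave 0 to 1 for RNO, 2 to 3 for ONO 1 nM, 2 to 6 for ONO 1 uM, 12 to 18 for vilanterol, 3 to 5 for ONO 1 nM + RNO, 9 to 18 for ONO 1 uM + RNO, 15 to 19 for vilanterol + RNO, 0 to 1 and 1 to 2 for RNO added to ONO 1 nM and 1 uM, 2 to 4 for ONO 1 uM against vilanterol and 0 to 1 for the interaction with ONO 1 uM. Many calls of changes near 0.2 or less on the log2 scale were lost when 1 library was left out. The smallest change that could be called was not determined and differs between members. For RNO against vehicle the SE of the log2 fold change was 0.027 in ZNF207 and 0.208 in ZNF579.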
